A study of Caenorhabditis elegans with 2 samples.

Results

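The peaks described here are 1006 regions of ZIP-8 signal in C. elegans embryos. They fell below the authors' optimal peak list and yet were listed in both biological replicates. They were chosen by their measured signal and replicate overlap. The authors labelled the pooled list as peaks and background, so a place in it does not by itself show binding. All 30000 rows of the authors' pooled list on the genome build ce11 were ranked by signal, and the rows after rank 2634 down to rank 5000 were taken, of which 2363 of 2366 lie on nuclear chromosomes. Of these, 1006 (42.6%) overlapped by at least 1 bp a peak in the list of replicate 1 and a peak in the list of replicate 2. The 2610 nuclear peaks of the optimal list, which hold ranks 1 to 2634 of the same pooled list, serve for comparison, together with the 1357 peaks of the same rank range that were not in both replicate lists.

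Chromatin immunoprecipitation was directed at ZIP-8 fused to enhanced GFP, in whole embryos of mixed stages and mixed sex, in 2 biological replicates that form 1 group. Both replicates come from strain OP327, which carries the unc-119(ed3) allele on chromosome III and the integrated transgene wgIs327, and the labels do not say whether they were separate cultures. No untagged strain and no input library was analysed here, so background from the tag or the antibody was not measured. The embryos contain all cell types, so a signal in few cells and a weak signal in many cannot be told apart.

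ZIP-8 belongs to the basic leucine zipper (bZIP) transcription factors. These proteins bind DNA as dimers, each partner reading a short core through its basic region, so that the joined cores make a palindrome or a hybrid. CREB and ATF factors read the cyclic AMP response element (CRE), C/EBP factors read a related palindrome, and PAR factors a further one. Composite sites combine cores of different families.

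A full bZIP site is here a match, on either strand and wholly within 50 bp of the summit, to any of 6 patterns of 8 bases. These are the CRE palindrome TGACGTCA, the CRE-PAR hybrid TGACGTAA, the C/EBP palindrome TTGCGCAA, the PAR palindrome TTACGTAA, the C/EBP-ATF composite TGATGCAA and the C/EBP-CRE hybrid TGACGCAA. A C/EBP-PAR hybrid, TTACGCAA, was added after the first results had been seen and is always counted apart. One summit window of each kind is shown from ce11, and a window without a full or core motif for contrast. Sites are in capitals, and a site on the other strand reads as its reverse complement. Each is the window of highest pooled signal of its kind among those that overlap no exon on chromosomes II to V and X.
idpa-1 promoter, CRE palindrome (chrIII:2901499-2901599, + strand): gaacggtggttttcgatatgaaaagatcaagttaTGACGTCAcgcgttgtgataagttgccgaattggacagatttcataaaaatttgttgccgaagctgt
elo-9 promoter, CRE-PAR hybrid (chrII:14964157-14964257, + strand): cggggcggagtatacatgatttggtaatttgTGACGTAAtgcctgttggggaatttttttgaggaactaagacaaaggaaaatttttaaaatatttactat
C56G3.2 vicinity, C/EBP palindrome (chrX:7368978-7369078, + strand): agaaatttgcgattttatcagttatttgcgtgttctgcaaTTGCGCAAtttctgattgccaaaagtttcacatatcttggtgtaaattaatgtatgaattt
ZC53.22 promoter, PAR palindrome (chrX:1923101-1923201, + strand): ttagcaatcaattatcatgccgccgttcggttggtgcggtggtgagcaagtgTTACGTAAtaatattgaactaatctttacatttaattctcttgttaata
W03G11.4 intron, C/EBP-ATF composite (chrX:12087372-12087472, + strand): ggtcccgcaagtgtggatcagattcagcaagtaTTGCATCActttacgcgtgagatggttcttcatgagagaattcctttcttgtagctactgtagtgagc
cyp-14A1 promoter, C/EBP-CRE hybrid (chrX:13267368-13267468, + strand): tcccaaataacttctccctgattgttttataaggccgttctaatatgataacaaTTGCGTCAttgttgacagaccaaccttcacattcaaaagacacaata
Y59H11AM.1 promoter, C/EBP-PAR hybrid (chrIV:8571283-8571383, + strand): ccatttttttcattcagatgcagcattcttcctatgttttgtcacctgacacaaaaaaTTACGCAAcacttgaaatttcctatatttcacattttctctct
nprt-1, no full or core motif (chrIV:2885066-2885166, + strand): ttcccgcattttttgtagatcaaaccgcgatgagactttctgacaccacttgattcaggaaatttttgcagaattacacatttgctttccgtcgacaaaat

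The first 3 of these windows come from peaks close to the limit of the optimal list. The idpa-1 peak had a signal of 21.4 in the pooled list, 18.2 in replicate 1 and 3.29 in replicate 2. The peak at elo-9, a fatty acid elongase gene, had 21.3 in the pooled list, 4.77 in replicate 1 and 9.98 in replicate 2, so the replicates placed these 2 peaks in opposite order. The intergenic peak near C56G3.2 had 21.4, 9.87 and 8.11. Signals are the authors' enrichment values, of a scale not given in the sources used here, and are compared only within a list.

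Signal and replicate overlap chose these peaks, and both are given as description. The pooled signal ran from 11.1 to 21.4 with a median of 15.3, against a median of 38.4 over the optimal peaks. The first peak outside the upper limit had a signal of 21.4366 and the first inside it 21.4276. At the lower limit the values were 11.0627 inside and 11.0625 outside, so neither limit falls at a gap in signal. In replicate 1 the overlapping peaks had signals of 2.02 to 47.6 with a median of 7.63, and in replicate 2 of 2.01 to 23.4 with a median of 5.13. Within the 5000 highest peaks of its own list stood 530 of the 1006 in replicate 1, 602 in replicate 2, and 274 in both. All 1006 intervals were 290 bp wide.

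Overlap with both lists became rarer down the ranks. Of the nuclear optimal peaks, 81.0% were in both lists. Below them the range was split into an upper band down to rank 3400, a middle band down to rank 4200 and a lower band down to rank 5000. The share in both lists was 52.2% in the upper band, 44.0% in the middle and 31.9% in the lower. Of the 1357 other peaks, 1026 were in replicate 1 alone, 247 in replicate 2 alone and 84 in neither. The list of replicate 1 is longer, at 22803 peaks against 12222, and how far list length sets these counts was not tested.

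A full bZIP site lay near 479 of the 1006 summits (47.6%, exact Clopper-Pearson 95% interval 44.5 to 50.8). Windows of the same width 250 bp to the side of the same summits held one in 2.19% of cases (22 of 1006), so the summits had 21.8 times as many (p = 8.00e-124 by the exact two-sided McNemar test). Of the optimal summits, 78.7% (2054 of 2610) held one, so the share below the threshold was 0.605 times that above it (95% interval 0.565 to 0.647, Fisher's exact test, two-sided, p = 3.10e-71). The share dropped along the ranks on both sides of the limit. It was 85.8% over ranks 1 to 500 and 70.0% over ranks 2001 to 2634, and then 58.0%, 47.6% and 31.4% over the 3 rank bands of peaks in both replicate lists. These tests are over peaks, neighbouring peaks are not independent, and intervals cover counting error only.

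**Figure D1:**
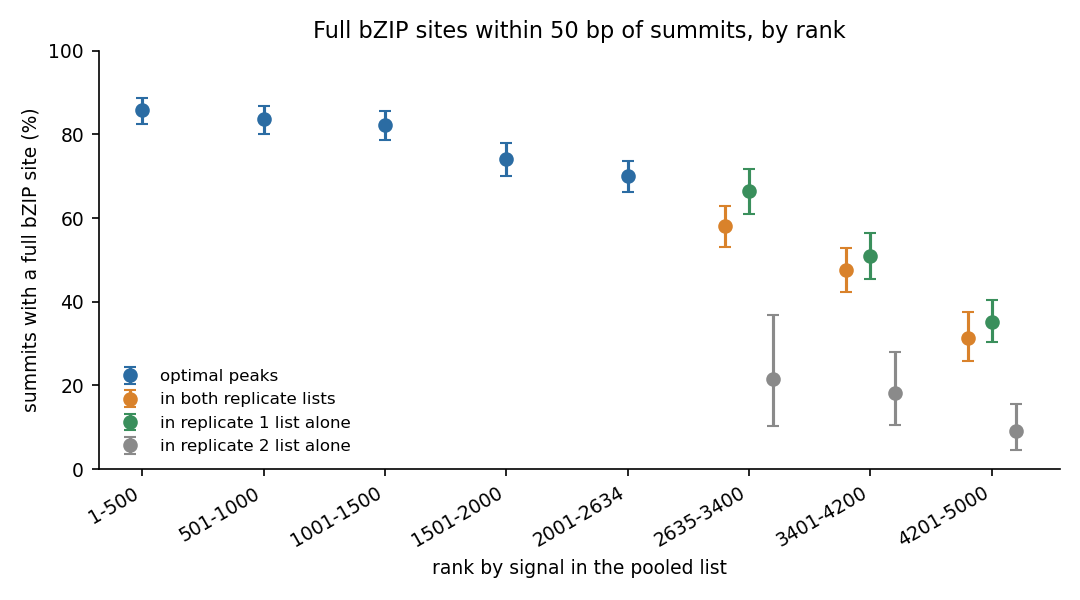
Share of summits with a full bZIP site within 50 bp (vertical axis, %) by rank in the pooled list (horizontal axis). Points are shares of the peaks of each class and bars exact 95% intervals. Peaks in both replicate lists stand at 58.0%, 47.6% and 31.4% over the 3 lower bands, close to or below peaks in the replicate 1 list alone (66.6%, 50.9% and 35.2%) and above those in the replicate 2 list alone (21.4%, 18.1% and 9.02%).

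Peaks in both replicate lists held full sites more often than all other peaks of the range, at 47.6% against 41.3% (560 of 1357; ratio 1.15, 95% interval 1.05 to 1.26, Fisher's exact test, two-sided, p = 0.00222). The result differed by list. Peaks in replicate 1 alone held a site in 50.1% of cases, and the ratio to them was 0.95 (95% interval 0.869 to 1.04, Fisher's exact test, adjusted p = 0.267). Peaks in replicate 2 alone stood at 14.2% (35 of 247) and peaks in neither list at 13.1% (11 of 84), and both were lower than the peaks in both lists (ratios of 3.36 and 3.64, Fisher's exact test, adjusted p = 2.05e-23 and 2.70e-10). Sorted by replicate 1 alone, peaks in its list held a site in 48.9% of cases and the rest in 13.9%. Sorted by replicate 2 alone, the order was the opposite, with 41.0% in its list and 47.3% outside it (ratio 0.867, Fisher's exact test, adjusted p = 0.00304). Of the 1110 peaks outside the replicate 2 list, 1026 were in replicate 1 alone, so the 2 groups differ in their mix of replicate 1 peaks. Within the replicate 1 list the shares with and without replicate 2 were 47.6% and 50.1%, and outside it 14.2% and 13.1%.

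Peaks in both lists ranked higher within the range than the others (median rank 3612 against 3987), so the comparison was repeated within the 3 rank bands. None of the bands passed the test against all other peaks. The shares were 58.0% against 60.4% in the upper band, 47.6% against 42.7% in the middle and 31.4% against 27.2% in the lower (Fisher's exact test, adjusted p = 0.509, 0.36 and 0.36). Against peaks in replicate 1 alone the adjusted p was 0.0611, 0.403 and 0.403, with the lower share in both lists each time.

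Within the 1006 peaks, the replicates also differed in where site-bearing peaks stood. The 479 peaks with a full site had a median signal of 9.23 in replicate 1 and 4.59 in replicate 2. The 527 peaks without one had 6.69 in replicate 1 and 5.67 in replicate 2, so the order of the 2 kinds was opposite in the 2 lists. The peaks were chosen within a band of pooled signal, so a higher signal in 1 replicate may go with a lower one in the other. How far this choice sets the opposite order was not tested. The replicate summits also lay nearer to each other at peaks with a site, with a median distance of 48 bp against 76 bp. At optimal peaks in both lists this median was 28 bp.

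**Figure D2:**
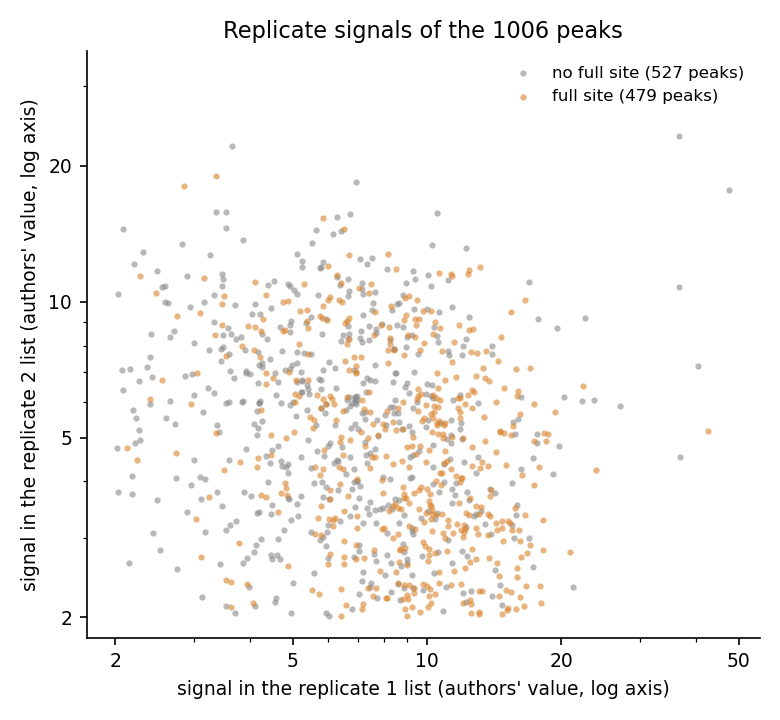
Signal in the replicate 1 list (horizontal, log axis) against signal in the replicate 2 list (vertical, log axis), authors' values, with 1 point for each of the 1006 peaks and colour for the presence of a full bZIP site. Site-bearing peaks lie more to the right and lower (medians 9.23 and 4.59) than peaks without a site (6.69 and 5.67), with wide overlap. The choice of peaks within a band of pooled signal may itself tie the 2 axes.

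By pattern, the C/EBP palindrome had the lowest ratio to the optimal list. It lay near 39 of the 1006 summits (3.88%) and 427 of 2610 optimal summits (16.4%), a ratio of 0.237 (95% interval 0.172 to 0.326, Fisher's exact test, adjusted p = 3.37e-27). The CRE palindrome was found at 28.9% against 39.5%, a ratio of 0.732 with an adjusted exact p of 2.14e-08. For the CRE-PAR hybrid the shares were 5.47% and 11.8%, a ratio of 0.465 with the same adjusted exact p. The C/EBP-CRE hybrid had 5.17% and 9.46%, a ratio of 0.546 with an adjusted exact p of 7.71e-05. The PAR palindrome (2.19% against 3.45%, ratio interval 0.400 to 1.01) and the C/EBP-ATF composite (2.49% against 1.84%, ratio interval 0.838 to 2.18) did not pass the test. In side windows these 6 patterns were each present in at most 0.795% of cases, the value of the composite.

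**Figure D3:**
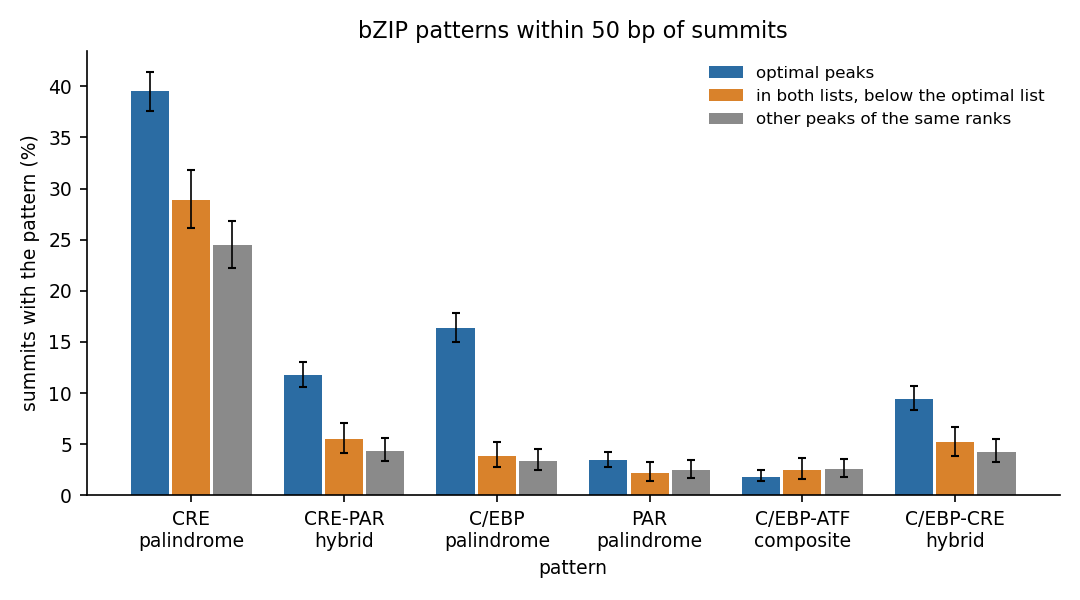
Share of summits (vertical axis, %) with each of the 6 bZIP patterns within 50 bp (horizontal axis), in optimal peaks, in the 1006 peaks and in other peaks of the same ranks, with exact 95% intervals as bars. The C/EBP palindrome drops from 16.4% to 3.88%, the CRE palindrome from 39.5% to 28.9%, and the composite stands at 1.84% and 2.49%.

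Among windows that do hold a full site, the mix therefore differed. The CRE palindrome made up a larger part, at 60.8% of 479 against 50.2% of 2054 site-bearing optimal windows (ratio 1.21, adjusted p = 9.19e-05 by Fisher's exact test). The C/EBP palindrome made up a smaller part at 8.14% against 20.8% (adjusted exact p = 3.55e-11, ratio 0.392), and the C/EBP-ATF composite a larger one at 5.22% against 2.34% (adjusted exact p = 0.00404, ratio 2.23). The hybrids and the PAR palindrome did not pass the test in this mix. Against other peaks of the same ranks, the CRE palindrome alone among the 6 patterns passed (28.9% against 24.5%, adjusted exact p = 0.0463). Peaks in replicate 1 alone held it in 29.8% of cases, and the ratio to them was 0.970 (95% interval 0.848 to 1.11, Fisher's exact test, p = 0.661). In the upper rank band the shares were 33.5% in both lists and 42.6% in replicate 1 alone. Windows with 2 separate full sites were 9 of 1006 (0.895%), against 209 of 2610 optimal windows. They include exonic summits of phm-2 and of the anillin gene ani-3, and the promoter of trp-4, a mechanosensory channel gene.

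The bases beside the CRE palindrome also differed. Of 294 copies near the 1006 summits, 21.4% had an A directly before and a T directly after the 8 bases, against 38.9% of 1140 copies near optimal summits (ratio 0.551, 95% interval 0.438 to 0.695, Fisher's exact test, adjusted p = 4.46e-08) and 12.7% of all 6026 copies in the nuclear genome. Counted from the genome, 57.8% of the 766 copies with both of these flanks lay near an optimal summit and 8.22% near one of the 1006. Of the 3080 copies with neither flank, 7.08% lay near an optimal summit and 2.18% near one of the 1006. For the C/EBP palindrome, which has 39 copies near the 1006 summits, no flank passed the test.

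The C/EBP-PAR hybrid was found by testing 23 one-base variants of both palindromes at summits without a full site, against their side windows. It lay near 57 of the 1006 summits (5.67%) and near 3 of their side windows (exact McNemar test, two-sided, adjusted p = 2.97e-14). This comparison reuses the summits that chose the pattern, so it is not a separate test. The hybrid lay near 307 optimal summits (11.8%; ratio 0.482, Fisher's exact test, adjusted p = 1.90e-08). Of the windows without any of the 6 patterns it was present in 10.6% of 527 below the threshold and in 50.7% of 556 above it. With it as a further pattern, 53.2% of the 1006 peaks and 89.5% of the optimal peaks held a site, and 56.1% of peaks in replicate 1 alone. A further variant, TGGCGCAA, passed with few counts (9 summits and 0 side windows, adjusted exact p = 0.0449).

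The remaining 471 summits held neither a full site nor this hybrid. Of them, 168 had a core motif of 5 bases, TGACG or TTGCG, and 303 (30.1% of all 1006) had none, against 5.48% of optimal summits with none. Among the 527 windows with none of the 6 patterns, the C/EBP core motif TTGCG was present in 34.2%, below the 68.3% of such optimal windows (adjusted exact p = 3.20e-28) and above the 26.3% of other peaks of the same ranks (adjusted exact p = 0.00944). The other peaks include those in replicate 2 alone or in neither list, and TTGCG was not compared with peaks in replicate 1 alone. TTGCG is part of the C/EBP-PAR hybrid, so these counts overlap. The CRE core motif TGACG did not pass either comparison (15.0%, 17.3% and 14.1%). In side windows of the 1006 peaks that held none of the 6 patterns, TTGCG was present in 12.1% and TGACG in 9.15%. A core motif thus also occurred away from summits.

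Sequences of other factors were rare. The GAGA repeat GAGAGAGA stood at 2.29% against 1.03% of optimal summits (ratio 2.21, adjusted exact p = 0.0204), and its share in side windows was 1.19%. The GC box CCGCCC stood at 3.98%, above the 1.84% of other peaks of the same ranks (ratio 2.16, adjusted exact p = 0.00913), while the difference from the 2.64% of optimal peaks did not pass (adjusted exact p = 0.102). A comparison of the GC box with peaks in replicate 1 alone was not made. The AP-1 site TGACTCA, the E-box CACGTG and the GATA site TGATAAG passed neither comparison. Words of 6 bases were compared as well. Of 10 words chosen as more frequent than in optimal windows on chromosomes I, III and V, 2 passed on the other 3 chromosomes, GAGAGA (11.1% against 6.48%, adjusted exact p = 0.00395) and AAGACG (5.34% against 2.65%). All 10 words chosen as less frequent passed, led in size by GTCATA (6.62% against 21.7%, ratio 0.306), GCAATA and TGCGCA. Median GC content of the windows was 41.6% in the 1006 peaks, 38.6% in optimal peaks and 36.6% in peaks of replicate 1 alone, and its part in these results was not tested.

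The median distance of sites from the summits was larger than in the optimal list over all patterns, though not for each. Within 100 bp, 548 of the 1006 peaks had a full site at a median distance of 17.5 bp (quartiles 9.5 and 32.8 bp), and 2179 optimal peaks at 13.5 bp (7.5 and 22.5 bp). The median was larger than in the optimal list for the CRE palindrome (18.5 against 13.5 bp), the C/EBP palindrome (19.5 against 14.5 bp), the PAR palindrome (27.5 against 14.5 bp) and the C/EBP-CRE hybrid (16.5 against 13.5 bp). It was smaller for the CRE-PAR hybrid (15.5 against 18.5 bp) and the C/EBP-ATF composite (25 against 27.5 bp). Peaks of the same ranks in replicate 1 alone had a median of 18.5 bp.

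**Figure D4:**
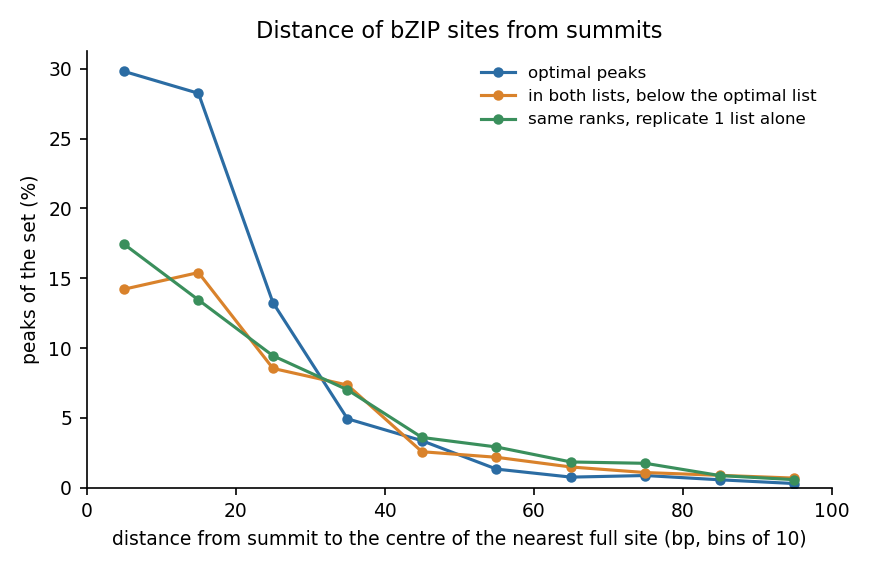
Distance from the summit to the centre of the nearest full site (horizontal axis, bp, bins of 10) against the share of all peaks of the set (vertical axis, %). The curves of the 1006 peaks and of peaks in replicate 1 alone lie near each other, with medians of 17.5 and 18.5 bp, and the optimal peaks are concentrated nearer the summit at a median of 13.5 bp.

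By location, 346 of the 1006 summits (34.4%) lay in promoters, from 1000 bp upstream to 200 bp downstream of a protein-coding transcript start, while 194 (19.3%) were exonic, 224 (22.3%) intronic and 242 (24.1%) intergenic. Exonic summits were more frequent than among optimal peaks (15.4%, ratio 1.26, Fisher's exact test, adjusted p = 0.0202) and intronic ones less frequent (28.1%, ratio 0.792, adjusted exact p = 0.00278). The promoter share did not pass the test (31.0% in optimal peaks, ratio 1.11, 95% interval 1.00 to 1.23, adjusted exact p = 0.109). No class passed against other peaks of the same ranks. Of the 194 exonic summits 181 lay in coding sequence. Of the promoter summits 285 were upstream of the nearest start, and their median distance to it was 229.5 bp against 313.5 bp for optimal promoter summits.

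Peaks with and without a full site lay in different places. Of those with a site 27.8% were exonic, against 11.6% of those without (ratio 2.40, 95% interval 1.82 to 3.16, Fisher's exact test, adjusted p = 3.72e-10). Of those without a site 39.8% were in promoters, against 28.4% of those with one (adjusted exact p = 0.000299). A full site was thus present at 68.6% of exonic summits (133 of 194), 48.7% of intronic, 41.7% of intergenic and 39.3% of promoter summits. In the optimal list the same shares were 89.8%, 77.7%, 74.2% and 77.8%, so promoters stood lowest in the 1006 peaks and level with introns above the threshold. Promoters were also lowest among peaks of the same ranks in replicate 1 alone, where the shares were 64.8%, 47.1%, 48.3% and 44.95%. They were lowest in replicate 2 alone as well (8.43%), though not among the few peaks in neither list. The low promoter share is thus not particular to peaks in both lists. In coding sequence the 1006 peaks and the optimal peaks showed the same pattern. It held 34.9% against 13.3% of the 1006 peaks with and without a site (ratio 2.62). For optimal peaks the shares were 21.2% against 6.65% (ratio 3.19; Fisher's exact test, adjusted p = 1.04e-15 and 3.01e-17).

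**Figure D5:**
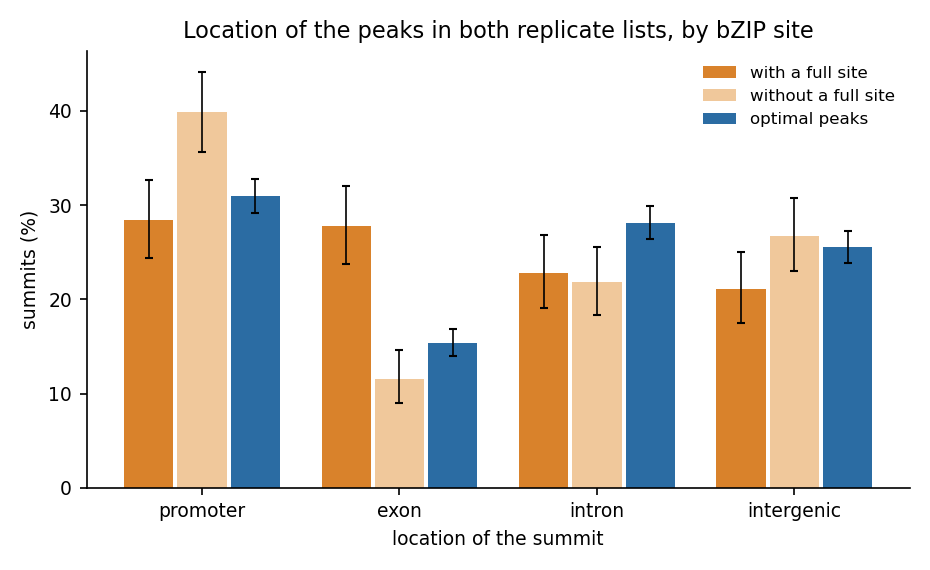
Share of summits (vertical axis, %) by location (horizontal axis) for the 479 peaks with and the 527 peaks without a full bZIP site, and for optimal peaks, with exact 95% intervals. Exons hold 27.8% of the first and 11.6% of the second, promoters 28.4% and 39.8%.

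No chromosome passed the test against the optimal list. The X chromosome held 19.3% of the 1006 summits and 15.9% of optimal summits (ratio 1.21, adjusted p = 0.104 by Fisher's exact test). Chromosome II stood at 11.9% against 14% (adjusted exact p = 0.343).

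Of 19973 protein-coding genes, 417 (2.09%) had 1 or more of these summits in their promoter, and 397 of these genes had no optimal summit. Optimal summits lay at 4.35% of protein-coding genes. The gene lists were described, with no test, by counts of genes with a summit in the promoter window, and peaks outside these windows are not counted. In all, 71 summits lay in the windows of 2 or more genes, so a listed gene need not have the nearest start. Among others, the peaks given for ceh-53, hsp-90, hsp-60, pdi-3, gmn-1, htz-1 and rpl-43 lay nearer to the start of another gene. A share near 2.09% is near that of all protein-coding genes. Among the lists of protein-coding genes, only those of heat shock and ribosomal protein genes had a larger share here than at optimal peaks.

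Genes of the bZIP family themselves held a summit at 3 of 28 (10.7%), and none of these 3 had an optimal summit. Optimal summits lay at 5 other genes of the list (17.9%), and other peaks of the same ranks at 2 (7.14%). The peak at zip-5 (V:13264707) lay 162 bp downstream of a transcript start and had a signal of 20.3 in the pooled list, 13.9 in replicate 1 and 3.82 in replicate 2, with a PAR palindrome 8.5 bp from the summit. The peak at cebp-1, a C/EBP gene with a role in axon regeneration (X:1454037, 169 bp upstream), had signals of 17.9, 7.48 and 10.9 and a CRE palindrome 13.5 bp from the summit. The peak at the CREB-related gene crh-2 (II:5182065, 976 bp upstream) had 15.7, 2.74 and 4.08 and no full site. The zip-5 peak ranked 2615 of 22803 in replicate 1 and 5783 of 12222 in replicate 2, and the cebp-1 peak 4900 and 1263. Outside promoter windows, 4 of the 1006 peaks lay within or nearest to zip-8 itself, and none of them held a full site. An intronic peak 698 bp downstream of the start (III:6479659) had signals of 19.8, 5.78 and 11.9, and an exonic one 1533 bp downstream (III:6480494) had 15.4, 7.0 and 5.22. The intergenic peaks 2483 and 2975 bp upstream had 19.2, 2.87 and 6.85 (III:6476472) and 16.5, 12.4 and 9.24 (III:6475980). A further 3 optimal peaks were assigned to zip-8. The strain also carries an inserted copy of zip-8, and reads from it and from the native gene cannot be told apart in any of these peaks.

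Lists of other transcription factor and signalling genes had between 0 and 5 members with a summit in the promoter window. Homeodomain genes had 1 of 93 (1.08%), ceh-53 (IV:3497281), with a CRE palindrome and signals of 20.5, 12.3 and 11.5, against 17.2% of the list at optimal peaks. Basic helix-loop-helix genes had 1 of 40, hlh-2, the E protein partner of many such factors, and none of 48 genes for GATA, forkhead and T-box factors had a summit in that window. Nuclear hormone receptor genes had 5 of 274 (1.82%), led by nhr-291 (V:15318842, signals 19.4, 12.2 and 5.95), whose C/EBP-CRE hybrid was centred 0.5 bp from the summit, then nhr-50 and nhr-48 without a site. Of Wnt pathway genes 1 of 27 held a peak, lit-1, the Nemo-like kinase (III:13716991, signals 18.5, 7.14 and 8.13), against 14.8% of the list at optimal peaks. In the insulin pathway 3 of 51 (5.88%) did, against 9.80% at optimal peaks. They were the kinase gene akt-2 and the insulin-like peptide genes ins-36 and ins-28, and none of these peaks had a full site.

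Structural and surface genes stood on both sides of the background. Collagen genes had 4 of 179 (2.23%), among them cle-1, the collagen XVIII gene, with a PAR palindrome (I:8725012, signals 17.8, 6.38 and 4.88), and the neighbours col-46 and col-47, which share a peak without a site. Junction genes had 1 of 25 (4.0%), vab-10, a spectraplakin gene, and hedgehog-related genes 1 of 86 (1.16%), grl-13. Chemoreceptor genes had 9 of 1309 (0.688%), led by srh-112, str-111 and sre-23, and 5 of these 9 peaks held a full site.

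Shares of stress genes lay above the background of 2.09%, and their order against the optimal list differed by list. Heat shock and chaperone genes had 4 of 62 (6.45%), against 3.23% at optimal peaks. They were dnj-25, the auxilin gene (V:20744623, signals 21, 10.6 and 8.16), hsp-90 (V:14685684, signals 18.4, 6.65 and 11.2), dnj-29 and the mitochondrial chaperonin gene hsp-60. The hsp-60 peak (III:1619214, signals 14.6, 6.92 and 7.0) was the 1 member of the list with a full site, a C/EBP-ATF composite 16.5 bp from the summit. It is also the 1 peak among 17 genes of the mitochondrial stress response (5.88%, against 23.5% at optimal peaks). Genes of endoplasmic reticulum stress had 2 of 20 (10%, against 25% at optimal peaks), enpl-1, the endoplasmin gene, and pdi-3, a protein disulfide isomerase gene, both without a site.

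Cell cycle and replication genes had 3 of 66 (4.55%), against 13.6% at optimal peaks. The spindle checkpoint kinase gene bub-1 (I:7251751, signals 17.2, 10.2 and 5.65) and the geminin gene gmn-1 (III:12226288, signals 11.6, 4.35 and 6.59) each had a CRE palindrome. The phosphatase gene cdc-25.2 had none (V:1577523, signals 12.8, 4.36 and 4.54), and an optimal summit lay in its promoter as well. The peak given for gmn-1 lay 957 bp upstream of the start of that gene and 58 bp upstream of that of Y75B8A.18. Histone genes had 3 of 83 (3.61%), against 10.8% at optimal peaks. They were his-31 and his-32, which share a peak (IV:8334185, signals 20.6, 12.2 and 8.28), and the H2A.Z variant gene htz-1. Neither peak had a full site.

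Genes for cytosolic ribosomal proteins had 7 of 81 (8.64%), and none of the 7 peaks held a full site. The highest were at rpl-1 (I:2876557, signals 19.4, 10.6 and 9.49), rps-28 (IV:1659272, 18.6, 16 and 5.50) and rpl-43 (II:14154550, 16.4, 11.3 and 5.07). The others were rpl-20, rps-29, rps-26 and rpl-31. Optimal summits lay at 6 other genes of the list (7.41%), and peaks of the same ranks not in both lists at 6 (7.41%).

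Genes of small nucleolar, transfer and micro RNAs were a further group with few sites. Of 26917 genes that do not code for protein, 1.49% held 1 of the summits and 3.02% an optimal summit. Small nucleolar RNA genes, whose products guide modification of other RNAs, had 23 of 346 (6.65%). The share was 8.67% at optimal peaks and 2.89% at other peaks of the same ranks. The 23 genes had 22 peaks, with 2 full sites. The highest were T08B2.13 (I:6212808, signals 20.8, 6.28 and 15.4), Y116A8C.50 and ZK265.10. Transfer RNA genes had 22 of 612 (3.59%), against 4.74% at optimal peaks and 3.76% at other peaks of the same ranks. None of these 22 genes had an optimal summit, and their 21 peaks held 2 full sites. The highest peak (X:13046472) lay 25 and 106 bp upstream of a pair of such genes (signals 20.9, 7.08 and 12.5). MicroRNA genes had 12 of 261 (4.60%), against 4.60% at optimal peaks and 0.766% at other peaks of the same ranks. The 12 genes had 6 peaks, none with a full site. One of these peaks (II:11537504, signals 14.9, 4.20 and 5.97) served the 7 genes of the mir-35 to mir-41 cluster, which acts in embryonic development, and others lay at mir-52, mir-90 and mir-1, the muscle microRNA. Small nuclear RNA genes had 2 of 129, ribosomal RNA genes 1 of 20, piRNA genes 124 of 15363 (0.807%) in 40 peaks and pseudogenes 21 of 2128 (0.987%). Sites were not few in all of these lists. A full site was present at 15 of the 40 piRNA gene peaks, 12 of the 21 pseudogene peaks and the 1 ribosomal RNA gene peak. The 2 small nuclear RNA gene peaks had none.

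Counted by peak, 52 of the 1006 summits (5.17%) lay in such a window of a transfer, small nucleolar, small nuclear, ribosomal or micro RNA gene, and 47 of these 52 had no full site. In the optimal list it was 69 of 2610 (2.64%), of which 24 had no full site. Some of these genes lie within or beside protein-coding genes, as at rps-26 and rps-29, so these groups share peaks.

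The 12 peaks of highest pooled signal held a full site in 9 cases. The highest (IV:14033012, signals 21.4, 10.1 and 11.5) was intergenic, 996 bp upstream of mir-52, and had none. An intronic peak of lin-14, the gene for a nuclear regulator of developmental timing, held a C/EBP palindrome 8.5 bp from the summit (X:11467697, signals 21.4, 13.8 and 6.69). An exonic peak of R10E11.9 held a CRE palindrome 7.5 bp from the summit and stood high in both replicates (III:9793253, signals 21.4, 11.4 and 11.4). By contrast the intergenic peak downstream of the chemoreceptor gene srd-8 had 21.3 in the pooled list, 18 in replicate 1 and 2.15 in replicate 2, where it ranked 11446 of 12222. The promoter peaks of C06A5.3, shared with simr-1 (21.4, 16.2 and 6.15), and F54D5.5 (21.3, 7.69 and 8.68) had no full site.

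The 12 peaks with the best ranks in the replicate lists were partly of another kind. For 6 of them, the replicate peak that gave the rank also overlapped an optimal peak beside them. They were an intronic peak of the Arf GTPase-activating protein gene cnt-2 (III:10665451, signals 15.8, 36.8 and 23.4), intronic peaks nearest to ssl-1 (III:12730730, signals 11.5, 47.6 and 17.7) and feh-1, an exonic peak of nhr-54, and the promoter peaks of F17C11.26 and rgs-7. Over all 1006 peaks this applied to 16, of which 3 had a full site, and 26 lay within 500 bp of an optimal summit or overlapped an optimal interval. For the other 6 of these 12, the replicate peak did not overlap an optimal peak. Of these, F07C6.4 (intron), Y54E5B.2 (exon), ceh-53 (promoter) and F10C2.4 (promoter) held a full site. The peak in an exon of dlg-1, the junction scaffold gene (X:5481386, signals 18.1, 12.2 and 13.2), and the one 2975 bp upstream of zip-8 did not.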

How the data were processed

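ChIP-seq of eGFP-tagged ZIP-8 was analysed from peak lists that the authors deposited on ce11 for 2 biological replicates, for the pooled replicates and for the optimal set. Per the file headers, each list was made from alignments and a control, and the optimal list by irreproducible discovery rate. No aligner, peak caller or threshold is named in the sources used here, and read depth is unknown. The deposited signal column is a score of the authors' caller, and the deposited significance column is −log10 of a q-value, which stood at its highest value for all 1006 peaks and was not used to rank. Lists on ce10 were not used here.

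Summits come from the deposited offsets. Sequence came from the RefSeq genome and genes from Ensembl release 115, both of the same build as ce11, and coordinates are 1-based. A summit was assigned to promoter, exon, intron or intergenic sequence, in that order. Noncoding genes had the same window around their starts. The side windows lay alternately left and right. Shares were compared by Fisher's exact test and summits with side windows by the exact McNemar test, both two-sided, with Benjamini-Hochberg adjustment within each family (scipy 1.17.1). Intervals of shares are exact Clopper-Pearson and those of ratios are on the log scale. TGACTCA and TGAGTCA are reverse complements and were counted once.

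The peaks and lists were chosen with earlier results of these data known. Named peaks are the 12 of highest pooled signal, the 12 best by their poorer replicate rank as a fraction of list length, up to 3 of highest signal in each gene list, all bZIP genes, and peaks with 2 or more sites. The comparisons with peaks in replicate 1 alone, replicate 2 alone or neither, the site mix, the one-base variants, TTACGCAA, the flanks, and location by site or coding sequence were added after seeing the data. The procedures were tested on simulated data.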

Additional observations from a re-analysis of the deposited data

How the results depend on the processing

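The ratio of the full site share to that of optimal peaks kept its direction and passed the test under all 11 alternatives tried, at 0.490 to 0.705. The ratio to other peaks of the range was 1.01 with rank 4000 as the lower limit (p = 0.828, exact test) and turned to 0.95 against peaks in replicate 1 alone. It was 0.867 without replicate 1 and 3.52 without replicate 2. The site share of the peaks was 52.0% with replicate summits within 100 bp, 55.5% with the 5000 highest peaks of each list, 54.4% with rank 4000 as the lower limit, 38.5% with rank 7500 as the lower limit, 54.5% with sites within 100 bp, 32.8% with the CRE and C/EBP palindromes alone and 53.2% with TTACGCAA. It was 41.0% without replicate 1 and 48.9% without replicate 2. The promoter share against optimal peaks passed unadjusted exact tests at ratios of 1.13 (50% of the interval covered), 1.15 (ranks to 4000), 1.12 (ranks to 7500), 1.12 (without peaks near optimal peaks) and 1.11 (without replicate 1, p = 0.0428), and did not pass at 1.04 without replicate 2 (p = 0.408). With promoters of 500 bp upstream and 100 bp downstream, 21.5% of the peaks were in promoters. The number of peaks was 274 with the 5000 highest of each list, 1253 without replicate 1 and 2032 without replicate 2. The causes were not tested. Depth is unknown, so no limit of detection can be given. No paired analysis was possible because both replicates form 1 group.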

Other observations

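Sites can also be counted from the genome, near optimal summits, the 1006 summits and other summits of the same ranks. Copies near lower ranks of the pooled list were not counted. The nuclear chromosomes hold 1591 copies of the C/EBP palindrome, of which 27.1% lay near an optimal summit, 2.45% near one of the 1006 summits and 2.89% near another summit of the same ranks. Of 6026 CRE palindromes the same shares were 18.9%, 4.88% and 5.59%. The 4578 copies of the C/EBP-ATF composite TGATGCAA were the most weakly represented of the 7 patterns near optimal summits, at 1.05%, with 0.568% near the 1006. The C/EBP-PAR hybrid TTACGCAA stood at 14.3%, 2.62% and 3.44% of 2178 copies, close to the CRE-PAR hybrid at 15.4%, 2.74% and 2.94% of 2008.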
